A study of Mus musculus with 9 samples.

Results

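The nuclear-encoded subunits of the mitochondrial respiratory chain and ATP synthase were described across 9 RNA-seq libraries of the mouse embryonic cortex. Members were protein-coding genes whose symbol marks a subunit of complex I (Nduf), complex II (Sdha to Sdhd), complex III (Uqcr), complex IV (Cox4 to Cox8) or complex V (Atp5), with at least 1 CPM (a gene's reads scaled to a common library total) in 3 libraries. The symbol pattern matched 97 genes, of which 85 were protein-coding and 81 passed the level. They were 81 of the 78275 gene IDs in the count table and of the 27773 genes tested: 37 of complex I, 4 of complex II, 8 of complex III, 14 of complex IV and 18 of complex V. Members were thus chosen by name and level. Of the 81, 79 had the level (taken before TMM scaling) in all 9 libraries. Ndufa4l2 had it in 3 libraries, 2 of sh-NT and 1 of sh-Gpc2, and Cox7a1 in 4, all 3 of sh-Gpc4 and 1 of sh-NT.

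The libraries were made from mCherry-positive cells sorted at E16.5 from wild-type embryos, 48 h after in utero electroporation at E14.5. Every embryo received a plasmid with mCherry and a short hairpin RNA in a microRNA backbone. The hairpin was a scrambled control (sh-NT) or was directed against Gpc4 (sh-Gpc4) or Gpc2 (sh-Gpc2), which encode glypicans, heparan sulfate proteoglycans of the cell surface. Each group had 3 libraries, and their numbers here follow the count table, 1, 3 and 4 in the sh-Gpc4 group and 1, 2 and 4 in the other groups. The labels do not say whether a library pools embryos or litters, so the p-values describe the spread among these samples, which may be technical.

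The respiratory chain passes electrons from NADH (complex I) and succinate (complex II) through ubiquinone, complex III and cytochrome c to oxygen at complex IV. Complexes I, III and IV pump protons, and complex V, the ATP synthase, uses the gradient to make ATP. All but complex II combine subunits from the nucleus with subunits encoded by mitochondrial DNA, and nuclear factors such as NRF1, GABP (also called NRF2) and YY1 are known to act on promoters of many subunit genes. During cortical neurogenesis, differentiating neurons are known to depend more on oxidative phosphorylation than the progenitors from which they arise.

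Promoters of the members were searched for motifs of these factors. Whether the motifs have a part in the members' levels between libraries was not tested. A RefSeq window from 250 bases before to 50 bases after a start (GRCm38.p6) was matched for 66 of 80 member genes, in 71 windows, and both strands were searched. The NRF1 motif, GCGCA and GCGC separated by any base, was in 25.4% of the member windows and in 6.38% of the 21263 windows of protein-coding genes. CCGGAAG, the core bound by GABP and other ETS factors, was in 22.5% of member windows and 11.6% of all. AANATGGCG, the YY1 motif, was in 14.1% and 3.12%. The SP1 motif GGGCGG was in 39.4% of member windows and 46.2% of all, and the E-box CACGTG in 9.86% and 7.84%. The SP1 and ETS motifs can overlap other GC-rich matches, and a match is a string of letters, not a shown binding site. By complex, 7 of 32 genes of complex I, 2 of 3 of complex II, 1 of 5 of complex III, 1 of 11 of complex IV and 6 of 15 of complex V had the NRF1 motif.

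With 1 chromosome left out of this search, an NRF1 match upstream of the start was found in 13 members. The 60 bases around it are shown for the 3 whose stretch overlaps no annotated exon, a subunit each of complexes V, IV and I. These 3 stretches share the core because they were picked for it. They lie on the minus strand at chr11:115420026-115420085 (Atp5h), chr5:115349041-115349100 (Cox6a1) and chr4:123718250-123718309 (Ndufs5), and capitals mark the NRF1 match.
Atp5h: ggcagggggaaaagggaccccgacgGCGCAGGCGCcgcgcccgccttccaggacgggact
Cox6a1: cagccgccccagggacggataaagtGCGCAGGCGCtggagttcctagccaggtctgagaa
Ndufs5: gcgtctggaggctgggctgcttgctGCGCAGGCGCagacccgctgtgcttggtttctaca

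The deposited counts gave 48045603 to 66538437 reads per library. The targeted transcripts were lower on average under their hairpins, without passing the test. Gpc4 was at 165, 188 and 175 CPM with sh-NT and 137, 99.9 and 129 CPM with sh-Gpc4. Gpc2 was at 200, 207 and 161 CPM with sh-NT, 167, 145 and 79.6 CPM with sh-Gpc2, and also low in sh-Gpc4, at 168, 70.3 and 96.6 CPM. On the first principal component, which held 71.6% of the variance, sh-Gpc4 library 3 (46.7) and sh-Gpc2 library 4 (36.6) stood apart above the other 7 (-25.8 to 15.8). All 3 sh-Gpc4 libraries (-5.71, 46.7 and 15.8) lay above the 3 sh-NT libraries (-17.6, -25.8 and -13.1) on it, while sh-Gpc2 libraries 1 and 2 (-17.7 and -19.1) lay among the controls. Summed markers of radial glia ran from 1880 to 3190 CPM, of excitatory neurons from 4220 to 5380, of intermediate progenitors from 654 to 710, of microglia from 465 to 1550, of erythroid cells from 54.6 to 125, of GABAergic cells from 4.43 to 38.5 and of endothelial and mural cells from 10.8 to 19.1 CPM. No marker was at 0 in all libraries, and markers of cortical progenitors and neurons were present. Microglia markers were present too, with a sum above that of the intermediate progenitor markers in 8 of the 9 libraries. In bulk samples, fewer cells of a type and less RNA per cell cannot be told apart.

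Together the members took 1.01% to 1.23% of the reads of a library. Levels per transcript length were highest for Cox4i1, the ubiquitous isoform of subunit 4 of cytochrome c oxidase (401 CPM per kilobase, mean of 9 libraries), and Atp5b, the catalytic beta subunit of the ATP synthase (383 CPM per kilobase). Within complex I the highest were Ndufc2 (271 CPM per kilobase) and Ndufa4 (239), a protein named for complex I and known to work in complex IV. In complex II they were Sdhb, the iron-sulfur subunit (232 CPM per kilobase), and Sdha, the flavoprotein (104). Uqcrh, the hinge protein, and Uqcrc1, a core protein, led complex III at 267 and 228 CPM per kilobase. The lowest members of each complex were Ndufa4l2 (1.01 CPM per kilobase), Sdhc (32.6), Uqcrq (76.6), Cox4i2 (2.44) and Atp5s (5.46). Ndufa4l2 and Cox4i2 are isoforms known to respond to low oxygen, and Atp5s is a coupling factor rather than a structural subunit. Levels per length rest on a single representative transcript of each gene.

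Ubiquitous isoforms far exceeded those of other tissues or states. Cox4i1 stood at 401 CPM per kilobase against 2.44 for Cox4i2, and Cox6b1 at 250 against 2.97 for the testis isoform Cox6b2. Cox7a2 was at 188 CPM per kilobase, Cox7a2l, a factor of supercomplex assembly, at 136, and the muscle and heart isoform Cox7a1 at 2.67. Ndufa4 was at 239 and Ndufa4l2 at 1.01 CPM per kilobase. The muscle or testis isoforms Cox6a2, Cox7b2, Cox8b and Cox8c reached at most 0.142 CPM in any library and were not members. Of the 3 genes for the c subunit of the ATP synthase ring, which encode the same mature protein, Atp5g3 was highest at 240 CPM per kilobase, Atp5g2 was at 61.8 and Atp5g1 at 20.7, the last with a long representative transcript. The 13 protein-coding genes of mitochondrial DNA had 0 reads in all 9 libraries, so nuclear and mitochondrial subunits could not be compared.

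The members went up and down together from library to library, and libraries of one group did not share a level. The median member lay 0.13 and 0.15 log2 units below its own 9-library mean in sh-NT libraries 1 and 2 and 0.03 above it in library 4. In sh-Gpc4 libraries 1, 3 and 4 the median was -0.01, 0.14 and 0.04, and in sh-Gpc2 libraries 1, 2 and 4 it was -0.16, 0.08 and 0.16. The lowest library on average was thus an sh-Gpc2 library, and so was the highest. In sh-Gpc2 library 1, 3 of 81 members exceeded their own mean, against 74 in sh-Gpc2 library 4 and 75 in sh-Gpc4 library 3. The count was 4 and 5 in sh-NT libraries 1 and 2, 54 in sh-NT library 4, 32 in sh-Gpc4 library 1, 60 in sh-Gpc4 library 4 and 68 in sh-Gpc2 library 2. The highest library of a member was sh-Gpc2 library 4 for 33 genes and sh-Gpc4 library 3 for 23, and the lowest was sh-Gpc2 library 1 for 35 and sh-NT library 2 for 25.

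**Figure D1:**
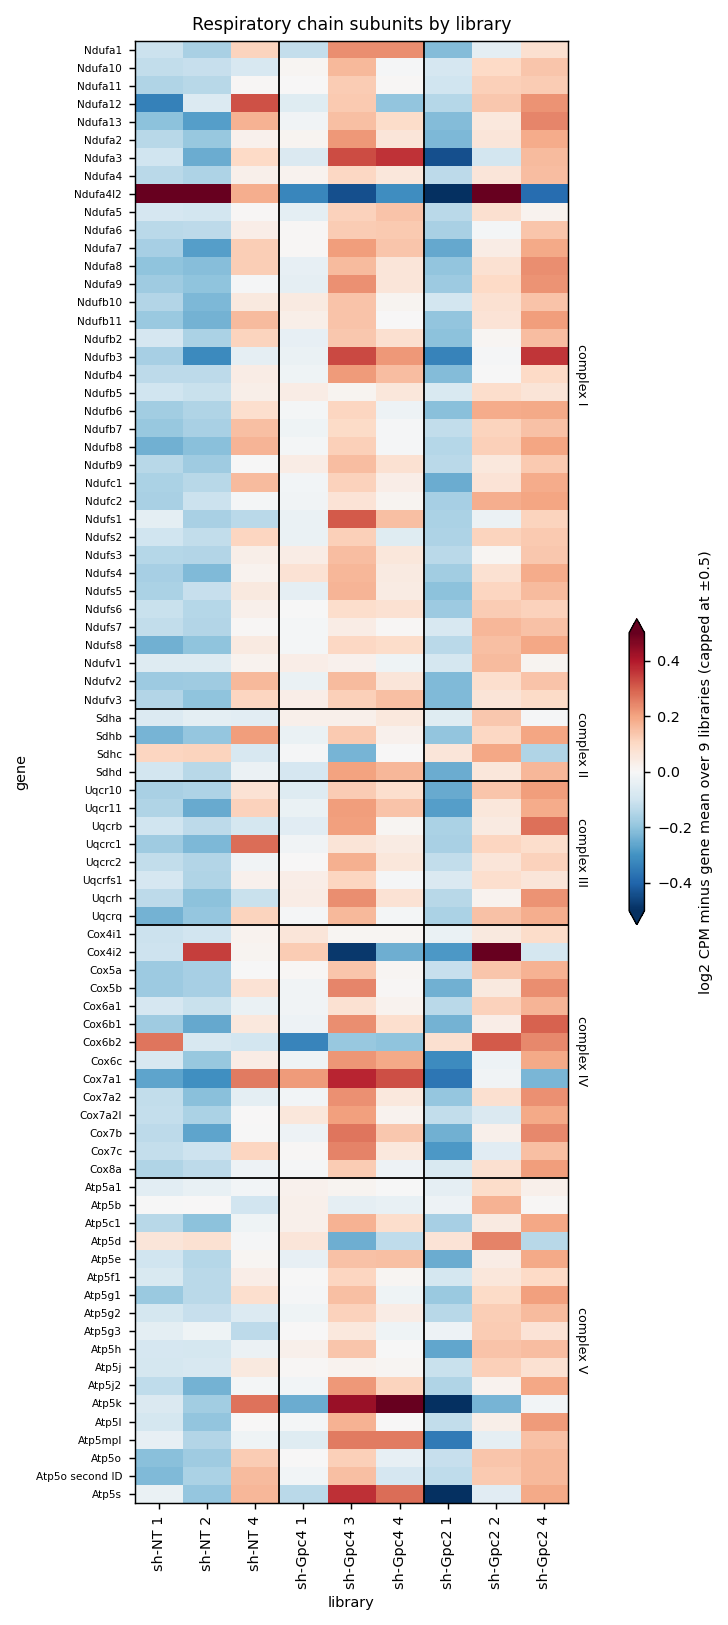
Log2 CPM of each of the 81 member genes (rows, by complex) minus its mean over the 9 libraries (columns), colours capped at 0.5 log2 units in each direction. Most rows are blue in sh-NT libraries 1 and 2 and sh-Gpc2 library 1 and red in sh-Gpc4 library 3 and sh-Gpc2 library 4, while Ndufa4l2, Sdhc, Cox4i2, Cox6b2 and Atp5d run otherwise.

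The 5 complexes shared this profile. In sh-Gpc2 library 1 the median member was at -0.17 in complex I, -0.13 in complex II, -0.16 in complex III, -0.22 in complex IV and -0.13 in complex V. In sh-Gpc4 library 3 the medians were 0.14, 0.08, 0.17, 0.21 and 0.14 in the same order. The 5 subunits of the catalytic F1 part of complex V differed among themselves. In sh-Gpc2 library 1 and sh-Gpc4 library 3, Atp5c1 was at -0.17 and 0.18 and Atp5e at -0.25 and 0.15, like the members as a whole. Atp5a1 was at -0.05 and 0.01 and Atp5b at -0.03 and -0.05, close to their means in both, and Atp5d went the other way, at 0.07 and -0.24. The steadiest member was Atp5a1, the F1 alpha subunit, with an SD of 0.04 log2 units over the 9 libraries, followed by Sdha (0.07) and Cox4i1 (0.07), while the median member had an SD of 0.15. The most variable were Ndufa4l2 (0.52), Cox4i2 (0.36) and Atp5k (0.35). These 6 were picked after their values were seen.

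In sh-Gpc4 against sh-NT, most members lay slightly higher and none passed the test. Of the 81 members 75 had a positive log2 fold change, against 52.8% of all genes tested, and the median was 0.14 (a ratio of 1.1) against 0.02 for all genes. In edgeR's quasi-likelihood test 0 members and 0% of the 27773 genes had an adjusted p under 0.05, and the smallest adjusted p, over all genes and among members, was 0.488. The median SE of a single member's log2 fold change was 0.12. An unadjusted p under 0.05 was reached by 3 members, Ndufs1, Uqcrh and Ndufa4l2, and by 9.57% of all genes. Of these members, Ndufa4l2 had the level for members in no sh-Gpc4 library, so its value is a description. DESeq2's Wald test called 45 of all genes and 0 members.

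The 3 sh-Gpc4 libraries all lay above the 3 sh-NT libraries for 19 members, 23.5% of them, against 10.8% of all genes tested. They all lay below for 2 members, Ndufa4l2 and Cox6b2, against 13.2% of all genes. Here too Ndufa4l2 is a description only. The 19 were Ndufa10, Ndufb3, Ndufb9, Ndufs1, Ndufs3 and Ndufs4 of complex I, Sdha, then Uqcrb, Uqcrc2 and Uqcrh of complex III, Cox5a, Cox6a1, Cox7a2, Cox7a2l and Cox8a of complex IV, and Atp5a1, Atp5c1, Atp5g2 and Atp5h of complex V. The count depended on sh-NT library 4: without that library it was 69 (85.2% of members, against 21.0% of all genes then tested). Without sh-Gpc4 library 1 it was 43 (53.1%, against 19.9%), and after each library's trend on transcript length was removed it was 6 (7.41%, against 12.2%). A comparison of 2 libraries with 3 separates the groups more readily, so the shares of all genes with a library left out run higher too. The median kept its sign with any single library left out (0.11 to 0.21), and was 0.09 without both libraries that stood apart.

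In complex I, 35 of 37 members were positive, with a median of 0.15. Ndufs1, the largest core subunit, was at 137, 127 and 129 CPM with sh-NT (131 ± 5.29, mean ± SD, n = 3) and at 139, 176 and 157 CPM with sh-Gpc4 (157 ± 18.4). The groups did not overlap, although sh-Gpc4 library 1 was just above the highest control. The log2 fold change of Ndufs1 was 0.26 (SE 0.11, adjusted p = 0.488), and reads may be shared with Eef1b2, whose exons overlap it. Ndufb9, an accessory subunit, was at 103, 100 and 113 CPM with sh-NT and at 116, 126 and 120 CPM with sh-Gpc4 (0.20, SE 0.09). All 7 core subunits were positive with a median of 0.12. Of the other 30 members, accessory subunits with Ndufa4 and Ndufa4l2 counted among them by name, 28 were positive, with a median of 0.15.

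Ndufa4l2 was the complex I gene that differed most from its neighbours. It was at 1.43, 1.27 and 1.01 CPM in the sh-NT libraries and at 0.699, 0.645 and 0.707 CPM in the sh-Gpc4 libraries. The sh-Gpc4 libraries were tightly grouped below the controls, while sh-Gpc2 held 0.565, 1.48 and 0.671 CPM, so that libraries 1 and 4 were near sh-Gpc4 and library 2 was the highest of all. The log2 fold change in sh-Gpc4 was -0.85 (SE 0.34, adjusted p = 0.488). Since the gene became a member through sh-NT libraries and sh-Gpc2 library 2, with no sh-Gpc4 library at the level, its difference is a description. Its exons overlap Shmt2, with use of strand in counting not given in the sources used here.

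Complex II, which oxidises succinate and is the only complex made wholly from nuclear genes, had a median of 0.10, with 3 of 4 members positive. Sdha was at 288, 292 and 291 CPM with sh-NT and 308, 308 and 313 CPM with sh-Gpc4. The groups did not overlap because both were tight (SD 2.06 and 3.17), at a ratio of 1.07 (log2 fold change 0.09, SE 0.08). Sdhb was at 224, 230 and 304 CPM with sh-NT and 257, 288 and 267 CPM with sh-Gpc4, with sh-NT library 4 the highest of the 6. Sdhd, a membrane anchor, had a log2 fold change of 0.19 (SE 0.12). Sdhc, the other membrane anchor, ran against the rest: it was at 111, 111 and 97.6 CPM with sh-NT, 103, 87.8 and 103 CPM with sh-Gpc4 and 107, 118 and 92.8 CPM with sh-Gpc2, lowest in the 2 libraries that stood apart.

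All 8 members of complex III were positive, with a median of 0.16. Uqcrh was at 133, 126 and 135 CPM with sh-NT and 149, 171 and 153 CPM with sh-Gpc4, with no overlap (log2 fold change 0.26, SE 0.11, adjusted p = 0.488). Uqcrc2, a core protein, was at 178, 175 and 191 CPM with sh-NT and 194, 219 and 202 CPM with sh-Gpc4 (0.18, SE 0.09). Uqcrc1, the partner core protein, had its highest value in sh-NT library 4 (455 CPM against 320 to 403 in the other 8), so its groups overlapped.

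In complex IV 12 of 14 members were positive, with a median of 0.17. Cox7b was at 61.8, 56.3 and 67.6 CPM with sh-NT and 66.4, 81.5 and 74.4 CPM with sh-Gpc4 (0.26, SE 0.14), and the groups overlapped by a single library. The negative values belonged to the scarce isoforms Cox6b2 (2.08, 1.62 and 1.61 CPM with sh-NT against 1.36, 1.5 and 1.49 CPM with sh-Gpc4; log2 fold change -0.29, SE 0.17) and Cox4i2 (1.61, 2.21 and 1.75 against 1.90, 1.23 and 1.46 CPM). Cox7a1, also scarce, was at 0.853, 0.827 and 1.24 CPM with sh-NT and 1.2, 1.35 and 1.3 CPM with sh-Gpc4 (0.40, SE 0.20). It became a member through the sh-Gpc4 libraries and sh-NT library 4, so its differences too are a description.

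In complex V 17 of 18 members were positive, with a median of 0.12. Atp5c1, the gamma subunit that forms the rotor shaft, was at 281, 269 and 306 CPM with sh-NT and 315, 350 and 330 CPM with sh-Gpc4, with no overlap (0.22, SE 0.10). Atp5j2, a subunit of the membrane part, was at 101, 94.0 and 110 CPM with sh-NT and 110, 129 and 120 CPM with sh-Gpc4 (0.23, SE 0.11). By contrast the catalytic subunit Atp5b was level, at 732, 734 and 685 CPM with sh-NT and 746, 709 and 713 CPM with sh-Gpc4. Atp5d, the delta subunit and the member with the highest GC content (61.1%), was negative: 142, 143 and 136 CPM with sh-NT, 142, 115 and 125 CPM with sh-Gpc4 and 143, 161 and 124 CPM with sh-Gpc2, lowest in the same 2 libraries as Sdhc. Its log2 fold change in sh-Gpc4 was -0.14 (SE 0.12), and 0.26 once each library's trend on GC content was removed. Atp5o appears under a pair of gene IDs with shared exons, whose reads cannot be separated.

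**Figure D2:**
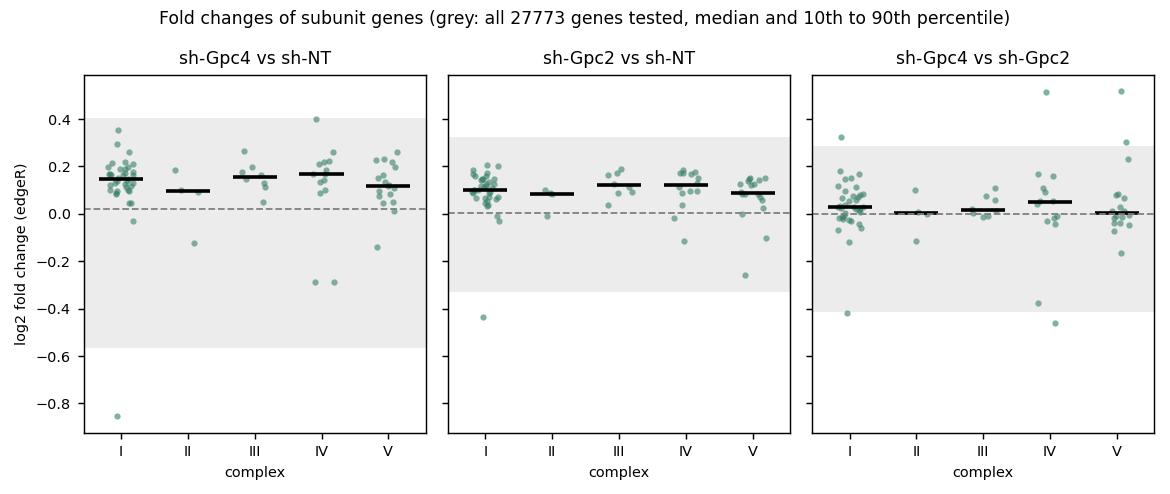
Log2 fold change (edgeR) of each member (points) by complex for the 3 comparisons; black bars are medians, the dashed line and grey band the median and the 10th to 90th percentile of all genes tested. Most points lie above the dashed line in both comparisons with sh-NT, nearly all within the grey band, and close to the line between sh-Gpc4 and sh-Gpc2; the lowest point in each of the first 2 panels is Ndufa4l2.

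In sh-Gpc2 against sh-NT the members also lay slightly higher on average, with groups that overlapped for every member. There were 72 of 81 positive, against 50.7% of all genes, with a median of 0.10 (a ratio of 1.07) against 0.00 for all genes. Medians were 0.10 in complex I, 0.08 in complex II, 0.12 in complexes III and IV and 0.09 in complex V. In edgeR 0 members and 0% of all genes passed (smallest adjusted p 0.968), and 0 members had an unadjusted p under 0.05, where 2.56% of all genes did. DESeq2 and limma voom called 0 genes as well. All 3 sh-Gpc2 libraries lay above all sh-NT libraries for 0 members and below for 0, while 3.59% and 4.11% of all genes were so separated.

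The overlap depended on sh-Gpc2 library 1. Without it, 46 members had sh-Gpc2 libraries all above sh-NT (56.8%, against 3555 of the 28530 genes then tested) and the median was 0.20. Without sh-NT library 4 there were 23 (28.4%, against 8.81%) and the median was 0.17. Without sh-Gpc2 library 4 the median was 0.05, and without both libraries that stood apart it was 0.03, with 56 of 81 positive. Among the members with the smallest p, Cox5a was at 165, 167 and 187 CPM with sh-NT and 173, 206 and 211 CPM with sh-Gpc2 (log2 fold change 0.19, SE 0.10, adjusted p = 0.968). Ndufs7, which carries an iron-sulfur cluster near the quinone site, was at 86.4, 85.2 and 94.6 against 89.0, 106 and 104 CPM (0.17, SE 0.09). In both genes sh-Gpc2 library 1 lay among the controls and libraries 2 and 4 above them. Uqcrh was at 132, 147 and 170 CPM with sh-Gpc2 (0.19, SE 0.11 against sh-NT).

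Both comparisons use the same sh-NT libraries, so their likeness is not independent. Directly between sh-Gpc4 and sh-Gpc2, 51 of 81 members were positive (49.5% of all genes), with a median of 0.02 against 0.00. This median changed sign with single libraries: it was -0.07 without sh-Gpc2 library 1, with 16 members positive, and -0.02 without sh-Gpc4 library 3. In edgeR 0 members and 0% of all genes passed (smallest adjusted p 0.966), and 3 members had an unadjusted p under 0.05 (2.89% of all genes). These were Cox6b2, Cox7a1 and Atp5k. Groups were separate and higher in sh-Gpc4 for 1 member, Cox7a1 (3.5% of all genes), and lower for 1, Cox6b2 (2.0% of all genes). Cox7a1 had the level for members in all 3 sh-Gpc4 libraries and in no sh-Gpc2 library. Its p and its separation in this comparison are therefore a description.

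Ndufa3, an accessory subunit, was at 60.9, 80.2 and 82.4 CPM with sh-Gpc4 and 47.2, 60.2 and 71.5 CPM with sh-Gpc2 (0.32, SE 0.17), and the groups overlapped. Cox6b2 was at 1.82, 2.13 and 2.03 CPM with sh-Gpc2, above the 3 sh-Gpc4 libraries (log2 fold change -0.46, SE 0.17, adjusted p = 0.966). Cox7a1, a member through the sh-Gpc4 libraries and sh-NT library 4, was at 0.795, 1.02 and 0.875 CPM with sh-Gpc2, below them. Its log2 fold change (0.52, SE 0.21, adjusted p = 0.966) is a description. Atp5k, the small subunit e of the membrane part, was at 45.8, 42.6 and 58.0 CPM with sh-NT, 40.4, 64.9 and 70.1 CPM with sh-Gpc4 and 33.9, 40.9 and 47.6 CPM with sh-Gpc2. It was high in sh-Gpc4 libraries 3 and 4 and in sh-NT library 4, and low in sh-Gpc4 library 1, and the sh-Gpc4 libraries spanned most of the range (0.52, SE 0.22, adjusted p = 0.966). The ribosomal protein gene Rps29 had a like order, at 74.4, 70.1 and 79.0 CPM with sh-NT, 63.1, 108 and 110 CPM with sh-Gpc4 and 50.3, 57.9 and 77.7 CPM with sh-Gpc2.

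**Figure D3:**
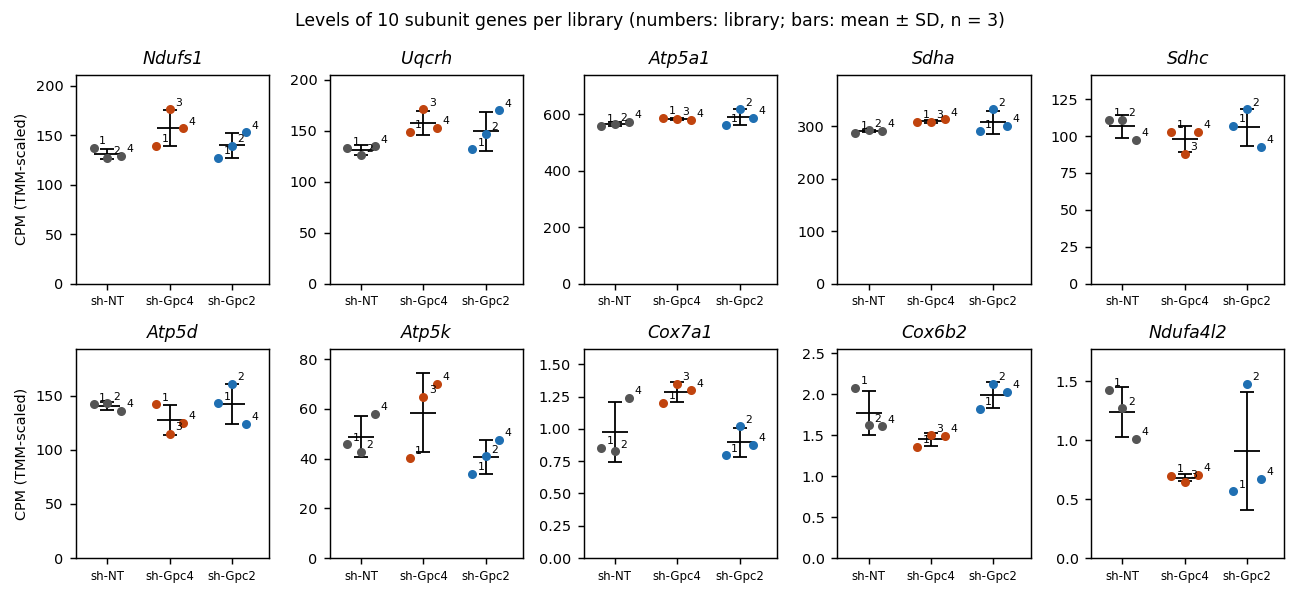
TMM-scaled CPM of 10 members in each library (points, labelled by library number), with mean and SD of each group of 3 (bars); every axis starts at 0. Ndufs1 and Uqcrh lie higher in sh-Gpc4 than in sh-NT, Ndufa4l2 lower, and Sdhc and Atp5d are lowest in sh-Gpc4 library 3.

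Lists of ribosomal proteins, with no subunit of the chain, also lay slightly higher than sh-NT. Cytoplasmic ribosomal proteins (80 genes) had a median log2 fold change of 0.15 in sh-Gpc4 and 0.12 in sh-Gpc2. In sh-Gpc4 47 of them lay above all sh-NT libraries (58.8%, against 10.8% of all genes tested). In sh-Gpc2 5 did (6.25%, against 3.59%). Mitochondrial ribosomal proteins (78 genes) had medians of 0.13 and 0.10, with 15 so separated in sh-Gpc4 (19.2%) and 1 in sh-Gpc2 (1.28%). Between libraries, the cytoplasmic list ran from -0.14 in sh-Gpc2 library 1 to 0.17 in sh-Gpc2 library 4, the same lowest and highest libraries as for the members. In sh-NT library 4 and sh-Gpc4 libraries 1 and 4 its median was -0.04, 0.02 and -0.0049, opposite in sign to the members' 0.03, -0.01 and 0.04. None of the genes of these lists passed the test in any of the 3 comparisons. The likeness of the lists to the members was described, and a difference between them was not tested.

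The median transcript length was 809 nucleotides for the members, 834 for cytoplasmic and 1302 for mitochondrial ribosomal proteins, against 2951 for all protein-coding genes tested. When coding genes with a mean log2 CPM above 3 were put into 8 classes by length, the shortest class (1295 genes, median 1031 nucleotides) had a median log2 fold change of 0.13 in sh-Gpc4 and 0.11 in sh-Gpc2. In sh-Gpc4 81.4% of the class were positive, beside 92.6% of the members, and 26.1% had sh-Gpc4 libraries all above the sh-NT libraries, beside 23.5%. Of the 77 members above that mean, 58 fell in this class, 56 of them positive (median 0.15) and 13 separate (22.4%). Another 12 fell in the next class (1384 to 1975 nucleotides), where all 12 were positive (median 0.13, against 63.0% and 0.06 in the class) and 2 were separate (16.7%, against 14.9%). A difference between the members and their length class was not tested. The medians went down with length to -0.10 and -0.08 in the class with a median of 5208 nucleotides. In the longest class (median 7732 nucleotides) they were -0.07 and -0.08. By library, the shortest class ran from -0.13 in sh-NT library 2 to 0.13 in sh-Gpc2 library 4. With each library's trend on length removed, the members' median was 0.11 in sh-Gpc4 against 0.06 for all genes, and 0.08 in sh-Gpc2 against 0.03.

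**Figure D4:**
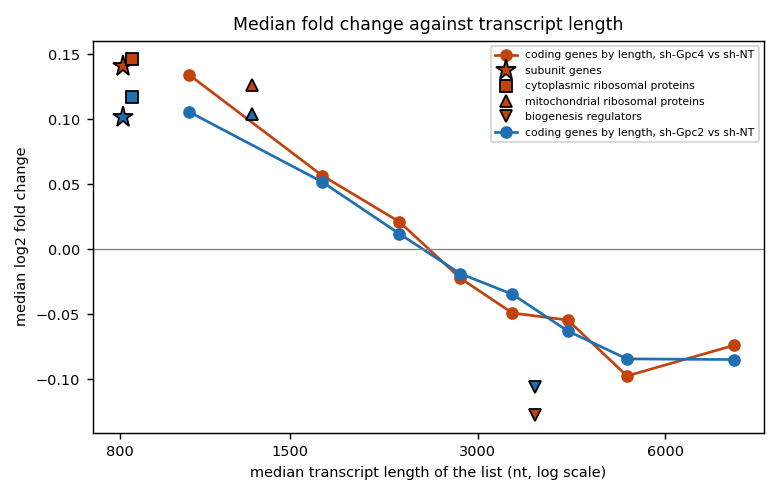
Median log2 fold change against the median transcript length (log axis) for 8 length classes of coding genes (lines) and for 4 lists (symbols), sh-Gpc4 in red and sh-Gpc2 in blue. The member genes sit at the short, positive end beside the ribosomal proteins, at 0.14 and 0.10, and the biogenesis regulators at -0.13 and -0.11 lie below the line at their length.

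Length was also set against the fold change among the members themselves, most of which fell in the shortest class. The 27 shortest members had a median of 0.16 in sh-Gpc4, the 27 of middle length 0.14 and the 27 longest 0.11, and Spearman's rho over the 81 was -0.29 (members share libraries, and this is a description). In sh-Gpc2 the medians were 0.11, 0.13 and 0.09 (rho -0.09). For GC content rho was -0.29 in sh-Gpc4 and 0.03 in sh-Gpc2. The median member had a GC content of 51.3%, and removing the GC trend gave a median of 0.21 in sh-Gpc4 and 0.16 in sh-Gpc2. The median of all genes in that setting is not given here, so these values show no gap to all genes. With the length trend removed, the median of all genes moved as well.

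Cell type markers moved with some of these libraries. Summed excitatory neuron markers were highest in sh-NT library 4 (5380 CPM) and sh-Gpc4 library 3 (5270 CPM), where the members were above their mean, but lowest in sh-Gpc2 library 2 (4220 CPM), where they were too. Radial glia markers were highest in sh-Gpc2 library 2 (3190 CPM) and lowest in sh-Gpc4 library 3 (1880 CPM). Microglia markers were at 804, 866 and 1220 CPM with sh-NT, 1090, 993 and 1550 CPM with sh-Gpc4 and 1400, 465 and 1350 CPM with sh-Gpc2. Erythroid markers were at 63.3, 54.6 and 120 CPM with sh-NT, 57.8, 112 and 74.1 CPM with sh-Gpc4 and 62, 125 and 115 CPM with sh-Gpc2. Their 4 highest libraries (sh-NT 4, sh-Gpc4 3, sh-Gpc2 2 and 4) are all libraries in which the members' median was above 0. It was also above 0 in sh-Gpc4 library 4, where erythroid markers were at 74.1 CPM. Like the members, the erythroid markers have short transcripts, with a median of 701 nucleotides. Endothelial and mural markers summed to 12.3, 19.1 and 18 CPM with sh-NT, 10.8, 10.9 and 14.2 CPM with sh-Gpc4 and 12.6, 13.9 and 11.2 CPM with sh-Gpc2, and 7 of 8 had a negative log2 fold change against sh-NT in each comparison (medians -0.94 and -0.86). GABAergic markers summed to 38.5 CPM with sh-NT library 1 and to at most 9.22 CPM in the other 8. The part of these cell types in the members' profile was not tested.

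**Figure D5:**
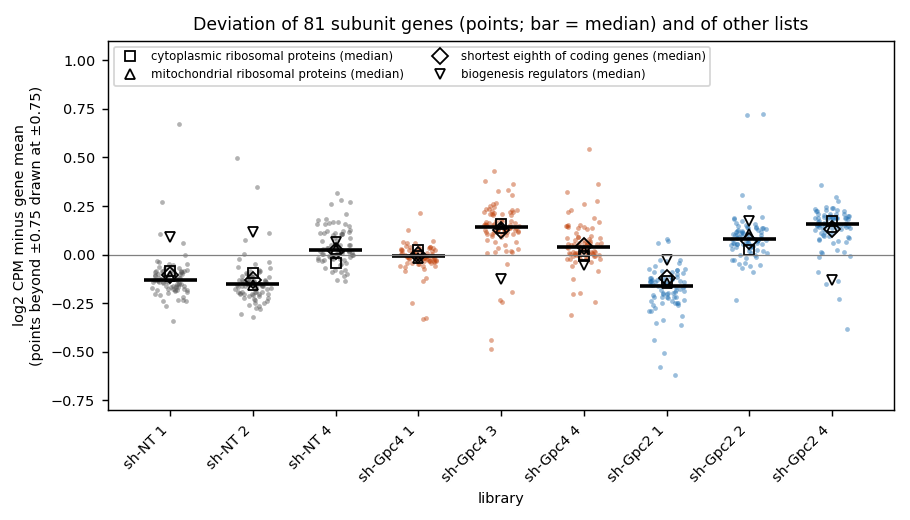
Log2 CPM minus the gene mean for the 81 members in each library (points; bars are medians) with the medians of 4 other lists (open symbols). The ribosomal lists and the shortest class of coding genes are negative with the members in sh-NT libraries 1 and 2 and sh-Gpc2 library 1 and positive with them in sh-Gpc4 library 3 and sh-Gpc2 libraries 2 and 4, while cytoplasmic ribosomal proteins differ in sign from the members in the other 3. The biogenesis regulators run the other way in sh-NT libraries 1 and 2, sh-Gpc4 library 3 and sh-Gpc2 library 4.

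Of the factors that assemble the complexes, most were positive. Of 49 assembly factors 38 were positive in sh-Gpc4 (median 0.12) and 35 in sh-Gpc2 (median 0.07), with none past the test. Their median transcript has 1676 nucleotides, and a difference from the members was not tested. For complex I, 14 of 16 were positive in sh-Gpc4, among them Dmac1 at 39.9, 38.3 and 45.5 CPM with sh-NT and 45.9, 53.6 and 47.6 CPM with sh-Gpc4 (0.25, SE 0.12). For complex IV, 13 of 20 were, with Surf1, a factor known from Leigh syndrome, at 0.29 (SE 0.14) and the copper factor Cox11 at -0.25 (SE 0.12). Ttc19, a complex III factor, had a log2 fold change of 0.49 (SE 0.21), with its highest level in sh-Gpc4 library 3 (28.8 CPM). A list of 6 genes outside the symbol rule held chain components and the associated factors Higd1a and Higd2a. Of these 6 genes, 5 were positive in both comparisons. The one below 0 in both was Cyc1, cytochrome c1 of complex III, at 181, 179 and 205 CPM with sh-NT and 182, 164 and 177 CPM with sh-Gpc4.

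Regulators of mitochondrial biogenesis lay on the other side. Of 14 genes 11 were negative in sh-Gpc4 (median -0.13) and 11 in sh-Gpc2 (median -0.11), and none passed the test. Pprc1, a coactivator of the PGC-1 family, was at 35.5, 38.6 and 31.9 CPM with sh-NT, 24.6, 8.37 and 11.9 CPM with sh-Gpc4 and 29.4, 36.4 and 10.1 CPM with sh-Gpc2. It was lowest in sh-Gpc4 library 3 and sh-Gpc2 library 4, where the subunits were highest (log2 fold change in sh-Gpc4 -1.24, SE 0.47, adjusted p = 0.488). Polg, the polymerase of mitochondrial DNA, was at 49.4, 53.5 and 48.4 CPM with sh-NT, 38.1, 31.7 and 36.2 CPM with sh-Gpc4 and 48.8, 54.3 and 32.8 CPM with sh-Gpc2 (-0.51, SE 0.17). The median transcript of this list has 3705.5 nucleotides, in a length class with medians of -0.05 in sh-Gpc4 and -0.03 in sh-Gpc2. The list's median GC content was 51.6%. With coding genes split by GC content, the class with a median of 51.1% had -0.03 and -0.02. The class highest in GC content had -0.34 and -0.18. Pprc1 has a GC content of 55.9%. The class with that median GC was at -0.24 in sh-Gpc4 library 3 and -0.16 in sh-Gpc2 library 4. The part of length and GC content in these levels was not tested.

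Enzymes of the tricarboxylic acid cycle, which feeds the chain with NADH and succinate, were mixed. Of 14, 10 were positive in each comparison (medians 0.06 and 0.08), and none passed the test. Idh3g, a subunit of isocitrate dehydrogenase, was at 125, 118 and 119 CPM with sh-NT and 126, 151 and 143 CPM with sh-Gpc4 (0.22, SE 0.10). Ogdh, of the oxoglutarate dehydrogenase complex, was at 194, 202 and 204 CPM with sh-NT and 182, 135 and 168 CPM with sh-Gpc4 (-0.31, SE 0.15).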

How the data were processed

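Sorted cortical cells were sequenced in 9 libraries, 3 per group. The authors deposited raw read counts per gene, made with featureCounts of Subread on GRCm38 (mm10), per the submitters' processing notes. Versions, aligner, annotation release and use of strand: not given in the sources used here. Per the labels' protocols, a low-input kit that amplifies cDNA was used. Column numbers (1, 2 and 4, or 1, 3 and 4) do not follow the titles' replicate numbers (1 to 3), so columns were tied to groups only. Symbols (65.8% of IDs), lengths and GC content of a representative transcript came from GENCODE M21. Members and lists were chosen with earlier results of these data known.

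Tests ran in R 4.3.3 with edgeR 4.0.16: quasi-likelihood on all 9 libraries, TMM, the default filter on low counts (27773 genes), a coefficient per group, and Benjamini-Hochberg adjustment over all genes at 0.05. CPM values are TMM-scaled. SE is the log2 fold change over the square root of F. Log2 deviations use a prior count of 2. Alternatives used DESeq2 1.42.0, limma 3.58.1 voom, other scalings and filters, trends removed by splines with 6 degrees of freedom, a replicate block and left-out libraries. On simulated counts of the 27773 genes for sh-Gpc4 against sh-NT, 67 of 100 genes changed 2-fold and 98 of 100 changed 4-fold were called, with 8 false calls. The changed genes were drawn from those with a mean above 5 CPM, and no shift shared by the genes of a library was simulated. Changes as small as those of the members were not simulated. No pair of libraries of a group was a duplicate (chi-square per degree of freedom 8.56 to 93.4). Of the members 29 share exon sequence with another gene.

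Named members were, per complex, the 2 highest and the lowest per length, up to 2 in each direction by p in each comparison, the Sdh genes and isoform pairs; from other lists, up to 2 in each direction by p in either comparison with sh-NT. Log2 fold changes are given only where larger than their SE, a limit set after the values were seen.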

Additional observations from a re-analysis of the deposited data

How the results depend on the processing

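Under 21 alternatives, 0 members were called in any comparison, and the members' median stayed positive in both comparisons with sh-NT (0.09 to 0.25 in sh-Gpc4, 0.03 to 0.20 in sh-Gpc2). Over all genes in sh-Gpc4 against sh-NT, DESeq2's Wald test called 45 genes, or 39 when run on all genes with a read, a setting added after seeing the data, while limma voom called 0. The count of members with sh-Gpc4 libraries all above sh-NT was 19 (23.5%, against 10.8% of all genes tested). It was 6 without the length trend (7.41%, against 12.2%) and 29 with a filter of more than 5 CPM (37.7%, against 13.1%). Upper quartile scaling gave 46 (56.8%, against 18.1%). With a library left out it ran from 18 to 69 (22.2% to 85.2%, against 10.7% to 21.0%). In sh-Gpc2 against sh-NT it was 0 (against 3.59% of all genes), and 1 with no filter (1.23%, against 3.66%). It was 7 above 5 CPM (9.09%, against 3.11%) and 4 with upper quartile scaling (4.94%, against 4.68%). Without sh-Gpc2 library 1 it was 46 (56.8%, against 3555 of the 28530 genes then tested). With any other library left out it ran from 0 to 23 (0% to 28.4%, against 3.61% to 11.2%). For sh-Gpc4 over sh-Gpc2 it was 1 (1.23%, against 3.5%), and 0 above 5 CPM (against 2.28%). Without both libraries that stood apart, a setting added after seeing the data, it was 9 (11.1%, against 18.2%). With a library left out it was 1 to 11 (1.23% to 13.6%, against 3.19% to 13.5%). Positive members in this comparison (51) ranged from 16 to 69. Upper quartile scaling moved the median of all genes in sh-Gpc4 to 0.13, so that the members' 0.25 lies 0.13 above it.

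With the replicate block by column number the medians were 0.10, 0.10 and -0.00, with 0 calls. The labels give the numbers no shared source, and same-numbered libraries deviated together unevenly (r of -0.04 to 0.42), so they were not taken as pairs.

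Signs changed for Sdhc (0.0091 in sh-Gpc4 against sh-NT and 0.0216 against sh-Gpc2), Cs (0.0187) and Cox4i2 (0.0401 against sh-Gpc2) under the block; for Atp5d (0.2596 and 0.0389) and Esrra (0.019 in sh-Gpc2) without the GC trend; for Mrpl48 (0.0331) without the length trend; and without sh-Gpc2 library 2 for Higd1a, Ndufa4l2 and Cox4i2. With a library left out, sh-Gpc2 against sh-NT ran from -0.0176 to 0.2554 for Higd1a, and sh-Gpc4 against sh-Gpc2 from -0.6716 to 0.1468 for Ndufa4l2 and from -0.5693 to 0.0036 for Cox4i2. The cause was not tested. Of the 53 fold changes of rule-named members, 17 lay within their SE, and 15 of these changed sign under some alternative, against 6 of the other 36. Counting error is largest for the scarcest members, Ndufa4l2 and Cox7a1.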
